A study of Mus musculus with 2 samples.

Results

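Nuclear receptors are transcription factors, most of which bind a small fat-soluble ligand such as a steroid, a retinoid, a sterol or a fatty acid, and which then act on genes that carry short hexamer sites. Steroid receptors bind mainly as homodimers to palindromic sites, whereas receptors for retinoids, oxysterols, bile acids, fatty acids and vitamin D pair with a retinoid X receptor on repeats of a hexamer. In the adrenal gland the cortex makes the glucocorticoids and mineralocorticoids that some of these receptors bind, from cholesterol, whose level other members of the family sense. The 35 genes described here are the nuclear receptor genes other than the Nr5a, Nr4a, Nr1d, Nr0b1, Nr6a1 and thyroid hormone receptor genes, among 21818 protein-coding genes in all. The rule that picks them goes by gene name and uses no measured value, although the set was proposed with earlier results of these data known.

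Open chromatin was measured by DNase-seq, in which DNase I cuts accessible DNA in nuclei, in adrenal glands of 2 male B6CASTF1/J mice, F1 hybrids of the strains named B6 and CAST, at an age of 25 days. The mice form a single group with no stated treatment, and each gave 1 library, replicate 1 and replicate 2. The labels number them as separate biological replicates but give both the same donor code, so differences between the libraries may be technical. No p-value can be given with 1 group, and values are therefore given for replicate 1 and then replicate 2.

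A DNase I hypersensitive site (DHS) is a stretch that the authors called as a peak, and its height is their deposited signal, scaled per library. The longer deposited list held 130945 DHSs in replicate 1 and 157786 DHSs in replicate 2, with median heights of 1.01 and 0.720, so heights were lower at the median in replicate 2. A gene's promoter was taken as open when at least 1 DHS reached within 1 kb of one of its protein-coding starts, and its height is that of the tallest such DHS. All positions are in mm10 (GRCm38). The tissue label was checked against marker genes. All 7 cortex markers had a promoter DHS in both libraries, among them the transcription factor gene Nr5a1 with heights of 9.01 and 4.09, and so had 6 of 7 chromaffin markers. Against 65.8% of all genes open in both, none of 6 liver markers was open in either library, and 1 of 5 kidney and 1 of 6 macrophage markers were open in both. However, 5 of 6 adipocyte and 4 of 5 neuronal markers were also open in both.

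Most nuclear receptor genes were open in the adrenal gland. A promoter DHS was present in 30 of 35 genes in replicate 1, against 69.4% of all protein-coding genes, and in 32 of 35 in replicate 2, against 69.1% of all. In both libraries together 30 of 35 genes (85.7%) were open, against 65.8% of all genes. A gene with several protein-coding starts has more places at which it can be called open. Of the 35 members, 24 had more than 1 separate promoter. At the 5′ end alone the share open in both was 68.6% of members, against 62.1% of all genes. How much of the difference goes with the number of starts was not tested. With the shorter, stricter peak lists 28 of 35 were open in both, against 60.6% of all genes. The 11 nuclear receptor genes outside this set were all open in both libraries. Openness of a bulk tissue can be low because few cells have the site or because each cell is cut less there, and these cannot be told apart.

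Their promoter DHSs were, at the median, lower than those of all genes. The median height over open members was 6.81 in replicate 1 and 3.84 in replicate 2, against 8.86 and 6.25 over all open promoters. Only 13 of 30 open members in replicate 1 and 13 of 32 in replicate 2 lay above the median of all open promoters. The range of members was 0.617 to 34.5 in replicate 1 and 0.551 to 25.3 in replicate 2. Over all open promoters it was wider, 0.0833 to 58.1 and 0.0888 to 71.4. At or above the 90th percentile of all open promoters were 5 members in replicate 1 (Nr2c2, Esrra, Rxrb, Ppard and Ppara). In replicate 2 there were 4, the same without Ppara. Below the 20th percentile lay 6 members in replicate 1 and 9 in replicate 2. Whether these counts differ from the shares that the percentiles set over all open promoters was not tested. The order of the 30 members open in both libraries was nearly the same in the 2 mice (Spearman's rho 0.98 across genes, which are not independent replicates and share the library).

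**Figure D1:**
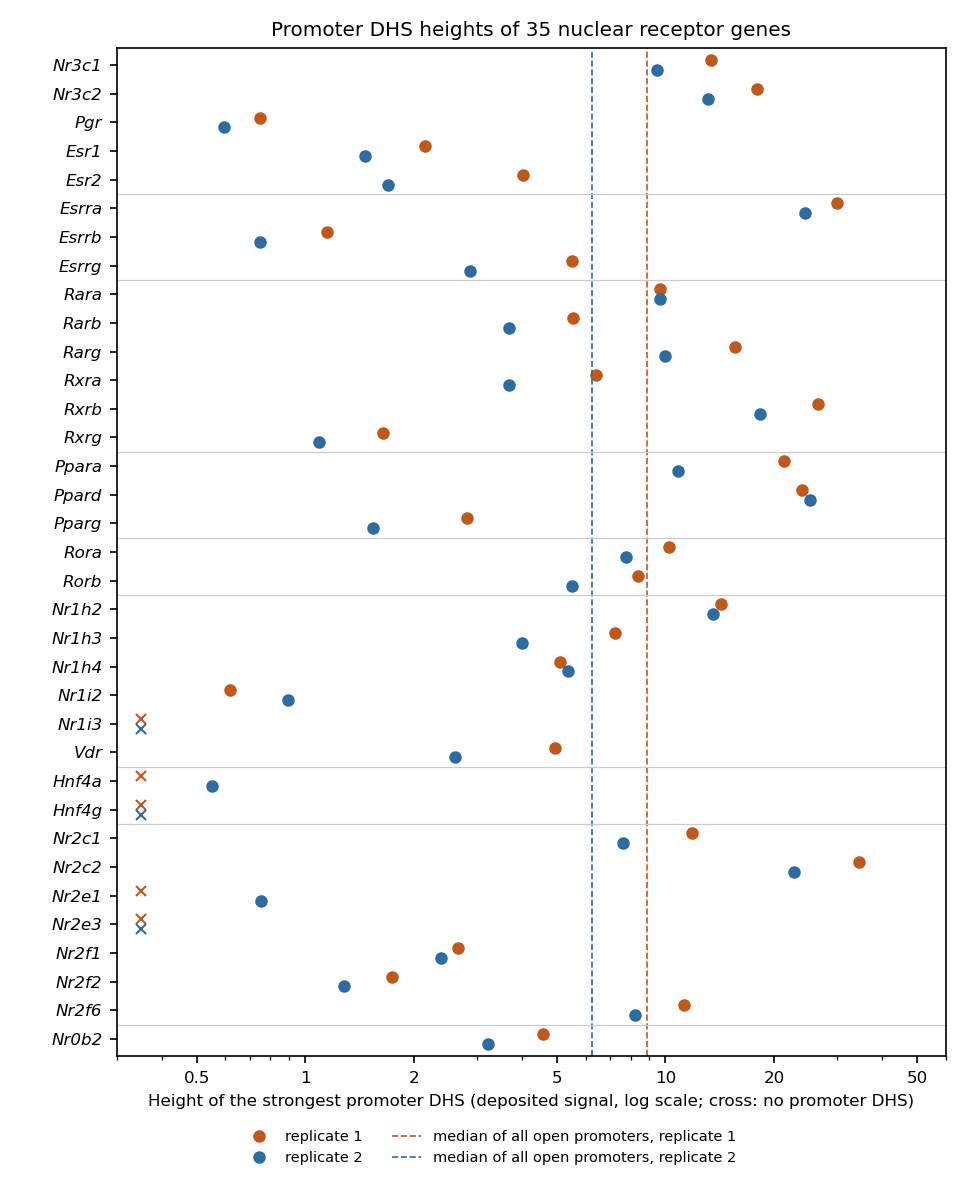
Height of the strongest promoter DHS (deposited signal, log scale) of each of the 35 genes in replicate 1 (orange) and replicate 2 (blue), with genes grouped by role between grey lines, crosses for genes without a promoter DHS and dashed lines at the medians of all open promoters (8.86 and 6.25). Pgr and Nr1i2 lie below 1 in both libraries and Nr2c2 reaches 34.5 and 22.8, and Nr1i3, Hnf4g and Nr2e3 have crosses for both libraries.

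The 2 corticosteroid receptor genes had the tallest promoter DHSs among the 5 steroid receptors. Nr3c1, the glucocorticoid receptor gene (chromosome 18, 39410545 to 39519421, minus strand), reached 13.4 at its strongest promoter in replicate 1 and 9.46 in replicate 2. That DHS lay at a group of 6 starts that begins 28120 bp inside the annotated gene. At the annotated 5′ end itself no DHS was called in replicate 1 and one of height 1.11 in replicate 2. Nr3c2, the mineralocorticoid receptor gene, reached 17.9 and 13.1 at its second promoter, 2846 bp from the 5′ end, and 5.85 and 2.55 at the 5′ end. In both genes the inner promoter was thus the taller in each mouse.

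The sex steroid receptors were lower. Pgr, the progesterone receptor gene, had heights of 0.750 and 0.595, and Esr1, the estrogen receptor alpha gene, had 2.15 and 1.47 at a start 98562 bp inside the gene, beside 1.11 and 0.862 at its 5′ end. Esr2, the estrogen receptor beta gene, had 4.02 and 1.70 at its 5′ promoter, but a taller DHS of 10.1 and 5.82 lay 18.9 kb upstream. The androgen receptor gene was not among the members and is not described here.

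The strongest DHS of Nr3c2 (chr8:76902001-76902260, plus strand) ends just before a start of that gene. It is shown because it is the tallest DHS of a steroid receptor gene here, with capitals for bases inside a deposited footprint in both libraries, a footprint being a short stretch that DNase I spared within a DHS. It held 4 footprints in replicate 1 and 3 in replicate 2, and 59 bases were covered in both.
Nr3c2: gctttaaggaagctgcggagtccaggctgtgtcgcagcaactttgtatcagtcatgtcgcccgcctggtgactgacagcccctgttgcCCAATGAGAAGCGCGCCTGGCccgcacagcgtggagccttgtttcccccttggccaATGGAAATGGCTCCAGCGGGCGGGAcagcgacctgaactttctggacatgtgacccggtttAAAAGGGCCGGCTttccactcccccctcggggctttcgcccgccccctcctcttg

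Estrogen-related receptors are orphan relatives of the estrogen receptors, and Esrra and Esrrg act on mitochondrial and oxidative genes. Esrra had one of the tallest promoters of the genome in both mice, at 29.9 and 24.3, which is the 99.0th and 99.5th percentile of all open promoters. It did so with only 3 DHSs assigned to it in each library. Esrrg was the reverse, with promoter heights of 5.52 and 2.87 at a start 389036 bp inside the gene and with 42 and 31 assigned DHSs. Esrrb had low promoter DHSs of 1.15 and 0.746 at an inner promoter and none at its 5′ end. Its tallest DHS of replicate 1, in an intron 41.8 kb from the 5′ end, had a height of 6.93 there and 1.63 in replicate 2, in which another DHS was the tallest at 1.82.

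The Esrra promoter DHS (chr19:6921801-6922020, minus strand) is printed next as an example of a tall CpG-rich promoter, together with the Nr2c2 promoter DHS (chr6:92092181-92092380, plus strand), the tallest of all members in replicate 1, and the Ppara promoter DHS (chr15:85735301-85735500, plus strand). Capitals again mark bases in a footprint of both libraries, 56 bases in Esrra, 75 in Nr2c2 and 39 in Ppara. None of the 3 stretches holds the hexamer AGGTCA on either strand.
Esrra: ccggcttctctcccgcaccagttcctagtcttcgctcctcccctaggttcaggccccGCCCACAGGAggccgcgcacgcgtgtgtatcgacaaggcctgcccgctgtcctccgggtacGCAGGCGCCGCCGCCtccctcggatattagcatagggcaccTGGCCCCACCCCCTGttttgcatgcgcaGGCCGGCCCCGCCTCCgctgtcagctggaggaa
Nr2c2: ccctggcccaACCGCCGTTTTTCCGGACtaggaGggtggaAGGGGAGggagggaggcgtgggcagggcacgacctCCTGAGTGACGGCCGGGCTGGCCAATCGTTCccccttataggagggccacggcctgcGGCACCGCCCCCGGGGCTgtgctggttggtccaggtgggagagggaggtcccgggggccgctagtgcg
Ppara: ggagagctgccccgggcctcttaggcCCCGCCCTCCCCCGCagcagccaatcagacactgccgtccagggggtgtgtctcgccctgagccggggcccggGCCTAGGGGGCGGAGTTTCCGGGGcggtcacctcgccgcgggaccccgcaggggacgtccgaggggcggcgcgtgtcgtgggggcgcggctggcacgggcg

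All 6 retinoid receptor genes were open in both libraries. Among the retinoic acid receptors, Rara had nearly equal heights of 9.62 and 9.67, Rarg had 15.6 and 9.98 near a start 11017 bp inside the gene, and Rarb had 5.54 and 3.69 at its second promoter, 243329 bp inside. At the 5′ ends, Rarb had 0.683 and no DHS, Rara had no DHS and 1.55, and Rarg had 2.65 and 2.58. In each of the 3 genes the tallest promoter was thus an inner one in both mice. Among the retinoid X receptors, the shared dimer partners, Rxrb had 26.6 and 18.3, Rxra had 6.40 and 3.69, and Rxrg had 1.64 and 1.09. The Rxrb DHS lies nearer to the start of Slc39a7, so its height cannot be given to one gene. By number of DHSs the order was different. Rara had 40 and 37 assigned DHSs and Rxra had 29 and 27, while Rxrb had 3 and 7 and Rxrg 8 and 6.

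The peroxisome proliferator-activated receptors sense fatty acids. Ppara, which drives fatty acid oxidation, had 51 assigned DHSs in replicate 1 and 43 in replicate 2, the highest number of all members in both. They summed to heights of 134.5 and 78.2. Upstream of the gene lay 48 of the 51 and 41 of the 43, and the tallest of these, 63.8 kb from the 5′ end, reached 11.8 and 8.57. The Ppara promoter had 21.3 and 10.8. Ppard, which is widely expressed, had 24.0 and 25.3 at its promoter, the tallest of all members in replicate 2, with 17 and 23 DHSs. Pparg, the adipocyte regulator, was low at its promoters, with 2.82 and 1.55 at the 5′ end, and its tallest DHS of 5.34 and 3.66 lay over an exon 102159 bp inside the gene. Adipocyte markers were open in both libraries for 5 of 6 genes, with summed heights per gene from 0.658 to 33.1 in replicate 1 and from 1.08 to 19.5 in replicate 2, and their part in the Pparg values was not tested.

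The ROR genes encode receptors that bind a single hexamer site. Rora had 10.2 and 7.75 at a start 635896 bp inside the gene and 4.12 and 2.94 at its 5′ end, with 37 and 34 assigned DHSs. Rorb had 8.37 and 5.52 at its 5′ promoter and none at its other promoter.

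The receptors for oxysterols, bile acids, foreign compounds and vitamin D differed widely among themselves. Nr1h2, the liver X receptor beta gene, had 14.3 and 13.5, and Nr1h3, the liver X receptor alpha gene, had 7.22 and 3.997 at its protein-coding starts. Near the annotated 5′ end of Nr1h3, 7683 bp away and not a protein-coding start, a further DHS had 8.42 and 5.61. It was not among the DHSs assigned to Nr1h3, because a protein-coding start of another gene lies nearer, so its height cannot be given to Nr1h3. Nr1h4, the farnesoid X receptor gene for bile acids, had 5.10 and 5.36. Vdr, the vitamin D receptor gene, had 4.94 and 2.61 at the third of its 4 promoters, 2320 bp from the 5′ end, and no DHS at the other 3. The receptors for foreign compounds were the lowest of these. Nr1i2, the pregnane X receptor gene, had 0.617 and 0.897, and neither DHS was in the shorter list. Nr1i3, the constitutive androstane receptor gene, had no promoter DHS and no assigned DHS in either library.

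HNF4 receptors are regulators of liver, kidney and gut genes. Hnf4a had no promoter DHS in replicate 1 and one of height 0.551 in replicate 2, which was not in the shorter list. It did have 2 intronic DHSs, 25.3 kb and 28.3 kb from the 5′ end. The nearer had 6.44 in replicate 1 and 2.32 in replicate 2, and the farther 8.64 and 2.05. Hnf4g had no promoter DHS, and of its 2 and 11 weak assigned DHSs none overlapped between libraries and the tallest was 0.267 and 0.542. The stretch of the farther Hnf4a DHS (chr2:163535001-163535180, plus strand) is printed because it is the tallest DHS of a member without an open promoter in replicate 1, with 21 bases in a footprint of both libraries in capitals.
Hnf4a: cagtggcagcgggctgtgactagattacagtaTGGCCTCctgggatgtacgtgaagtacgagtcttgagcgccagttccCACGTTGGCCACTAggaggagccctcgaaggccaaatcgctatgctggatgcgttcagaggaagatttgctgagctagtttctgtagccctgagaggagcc

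The NR2 orphan receptors included the tallest member promoter of replicate 1 and 1 gene with no promoter DHS in either library. Nr2c2 and Nr2c1, the testicular receptor genes, had 34.5 and 22.8 (Nr2c2) and 11.9 and 7.63 (Nr2c1), and Nr2f6 had 11.3 and 8.22. Nr2e3, a photoreceptor regulator, had no promoter DHS in either library although 13 DHSs were assigned to it in each, the tallest at 4.20 and 1.79. Its only protein-coding start lies 10542 bp inside the annotated gene. Nr2e1, a neural stem cell regulator, had no promoter DHS in replicate 1 and one of 0.755 in replicate 2 that lies nearer to the start of Ostm1. The deposited list of stretches at a false discovery rate of 0.05 or less had no entry within 1 kb of a start of Nr1i3, Hnf4g or Nr2e3 in either library, nor of Hnf4a or Nr2e1 in replicate 1.

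The COUP-TF genes Nr2f1 and Nr2f2, regulators of development and of steroidogenic cells, had weak DHSs at their annotated starts and tall ones nearby. Nr2f1 had 2.65 and 2.38 at its promoter and 12.2 and 8.86 at a DHS 1973 bp upstream of the 5′ end. Nr2f2 had 1.74 and 1.28 at different DHSs in the 2 libraries, and 17.5 and 8.17 at an intronic DHS 4905 bp inside the gene. They had 30 and 18 (Nr2f1) and 28 and 30 (Nr2f2) assigned DHSs. The Nr2f2 DHS also lies upstream of the inner protein-coding starts of that gene, at 70359921 to 70360593. Both tall DHSs lie outside the 1 kb promoter window but reach within 2 kb of a protein-coding start of their gene. With the 2 kb window they would thus count as promoter DHSs. The 2 stretches are shown because each is taller in both mice than any DHS within 1 kb of the gene's starts. The Nr2f1 stretch is chr13:78201641-78201820 and the Nr2f2 stretch chr7:70361721-70361940, both on the minus strand, with 17 and 43 bases in a footprint of both libraries in capitals.
Nr2f1: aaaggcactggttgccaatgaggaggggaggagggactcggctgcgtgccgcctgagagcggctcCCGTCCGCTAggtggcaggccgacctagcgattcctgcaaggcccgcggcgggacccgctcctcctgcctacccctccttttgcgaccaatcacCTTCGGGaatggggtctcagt
Nr2f2: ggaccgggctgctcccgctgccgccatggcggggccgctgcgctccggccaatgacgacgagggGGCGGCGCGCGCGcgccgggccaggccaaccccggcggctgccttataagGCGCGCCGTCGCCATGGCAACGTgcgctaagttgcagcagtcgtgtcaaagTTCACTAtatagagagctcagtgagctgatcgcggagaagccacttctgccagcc

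Nr0b2, which encodes the small heterodimer partner, a repressor without a DNA-binding domain, had a promoter DHS of 4.56 and 3.22. A taller DHS of 10.4 and 6.61 lay 9844 bp downstream of its 5′ end.

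The strongest promoter DHS was often not at the annotated 5′ end. In 13 of the 30 members open in both libraries (43.3%) it was centred more than 1 kb from the 5′ end in both, against 10.7% of the 14351 genes open in both. In 7 of them (Nr3c1, Esr1, Esrrb, Esrrg, Rarb, Rarg and Rora) it was more than 10 kb away, which is 23.3% of the 30, against 4.55% of all genes open in both. These differences were not tested. Counted at the 5′ end alone, 24 of 35 members (68.6%) were open in both libraries, against 62.1% of all genes. The starts of the 35 genes form 73 separate promoters, of which 45 had a DHS in both libraries and 21 in neither. Of the 24 members with more than 1 promoter, 7 had a DHS at every one in both libraries.

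**Figure D2:**
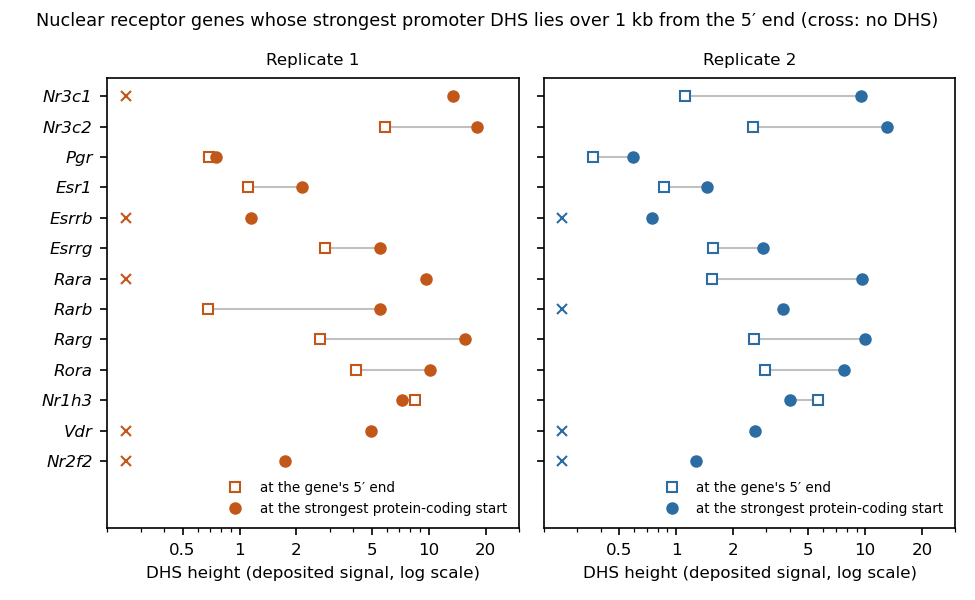
DHS heights (deposited signal, log scale) at the 5′ end (open squares) and at the strongest protein-coding start (filled circles) of the 13 genes in which these lie more than 1 kb apart, with replicate 1 on the left and replicate 2 on the right and crosses where the 5′ end had no DHS. The circle lies to the right of the square in both mice for every gene with both except Nr1h3, whose 5′ end had 8.42 and 5.61. That DHS lies nearer to a protein-coding start of another gene.

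Many members had more DHSs around them than most genes. The median number of DHSs whose nearest start was the member's, within 100 kb, was 8 in replicate 1 and 11 in replicate 2, against 3 and 4 over all genes. At or above the 95th percentile of all genes were 10 members in replicate 1 and 12 in replicate 2. The median summed height was 20.8 and 14.7, against 9.96 and 7.14 over all genes. Members also had more room for DHSs, with a median territory, the stretch nearer to their starts than to those of any other gene and within 100 kb of them, of 114.6 kb against 46.6 kb. Across the 35 genes, number and territory had a Spearman's rho of 0.56 and 0.66, and how much of the difference in number goes with territory was not tested. The other 11 nuclear receptor genes had medians of 16 and 13 DHSs with a median territory of 115.9 kb.

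Tall promoters and many DHSs did not go together among the members. Over the 30 genes open in both libraries, promoter height and number of DHSs had a Spearman's rho of -0.08 in replicate 1 and 0.04 in replicate 2. Esrra and Nr1h2 combined promoter heights of at least 13.5 with 2 or 3 DHSs, while Rora, Esrrg and Rara had promoter heights of at most 10.2 and 31 to 42 DHSs. Ppara had both a tall promoter and many DHSs. Height and the CpG ratio (observed over expected CpG within 500 bp of the 5′ end) had a rho of 0.53 and 0.49. For the 13 genes whose strongest promoter DHS lay more than 1 kb from the 5′ end, the 2 values describe different places. These correlations are descriptions across genes that share a library.

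**Figure D3:**
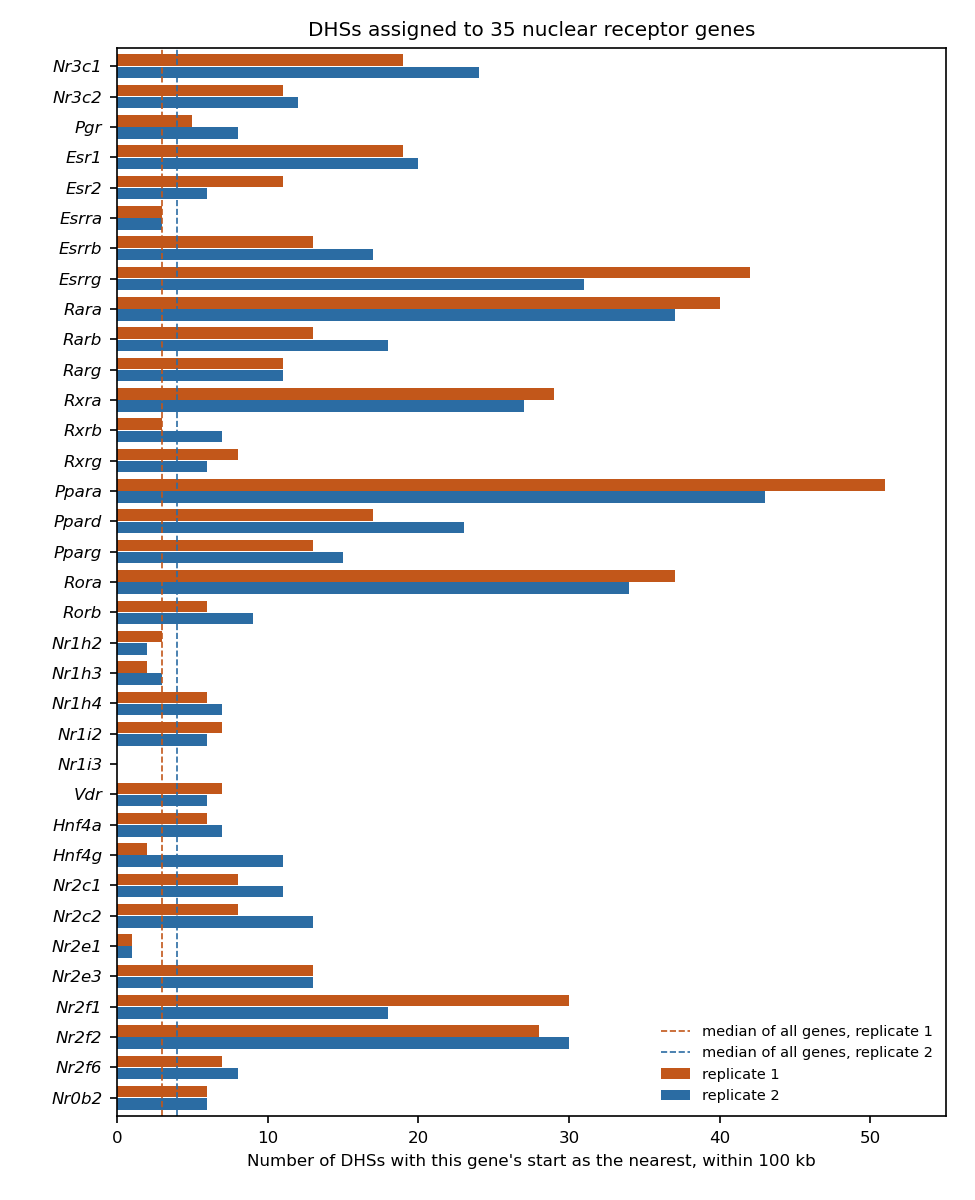
Number of DHSs assigned to each of the 35 genes in replicate 1 (orange) and replicate 2 (blue), with dashed lines at the medians over all genes (3 and 4). Ppara has the longest bars at 51 and 43, followed in both libraries by Rara, Esrrg and Rora in differing order, and Nr1i3 has none.

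A larger share of member DHSs than of all assigned DHSs lay in introns, a difference that was not tested. Of 485 member DHSs in replicate 1 and 493 in replicate 2, 39.4% and 41.2% were intronic, against 29.99% and 30.2% of DHSs assigned to any gene. Within 1 kb of a start were 24.7% and 22.9%, against 27.8% and 25.7%. In 11 of the 30 members open in both libraries (36.7%) an assigned DHS was taller than the strongest promoter DHS in both, against 13.1% of all genes open in both. The 11 were Esr1, Esr2, Esrrb, Rara, Rxra, Rxrg, Pparg, Nr1i2, Nr2f1, Nr2f2 and Nr0b2. A gene with more assigned DHSs has more that can be taller. The 30 members had medians of 11 and 11.5 assigned DHSs, against 3 and 4 over all genes, open or not. How much of the difference goes with this was not tested. The Rara case is an intronic DHS 5622 bp from the 5′ end with 16.8 and 13.1, against 9.62 and 9.67 at the promoter. Its stretch (chr11:98933361-98933520, plus strand), the tallest of the retinoic acid receptor genes, is printed with the 50 bases in a footprint of both libraries in capitals.
Rara: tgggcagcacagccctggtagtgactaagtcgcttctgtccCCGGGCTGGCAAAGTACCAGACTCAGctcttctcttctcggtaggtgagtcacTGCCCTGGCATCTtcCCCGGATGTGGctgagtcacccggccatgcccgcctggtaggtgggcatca

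**Figure D4:**
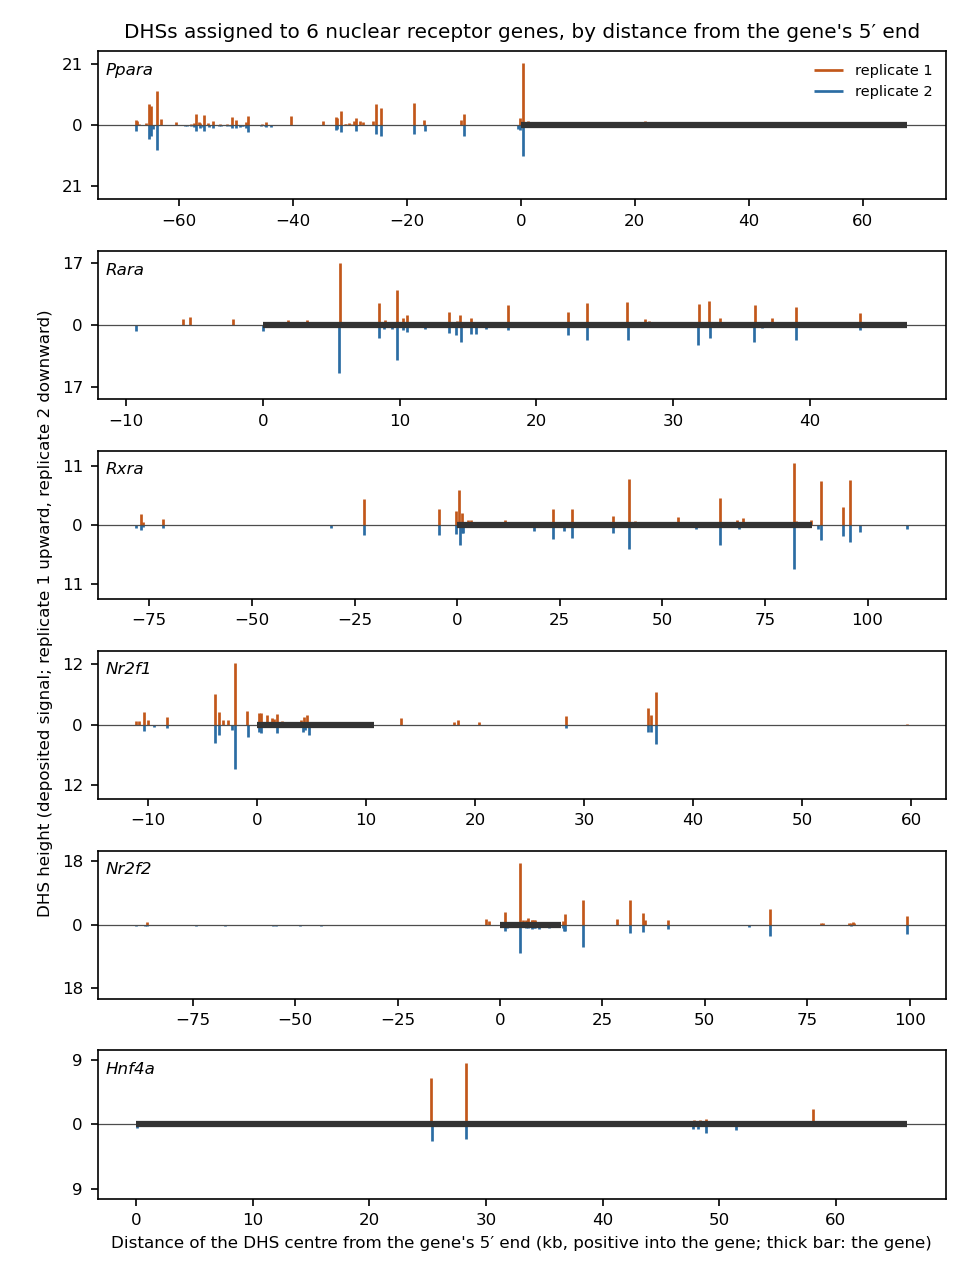
Heights (deposited signal) of all DHSs assigned to 6 genes against the distance of the DHS centre from the gene's 5′ end in kb, replicate 1 upward in orange and replicate 2 downward in blue, with the gene as a thick bar. Most Ppara DHSs lie upstream, those of Rara mainly inside the gene, the tallest of Nr2f1 just upstream and that of Nr2f2 inside, and the 2 tall Hnf4a DHSs are shorter in replicate 2.

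Footprints lay inside nearly all promoter DHSs of the members. In replicate 1, 29 of 30 strongest promoter DHSs (96.7%) held at least 1 footprint, against 96.8% of all genes with an open promoter. In replicate 2, 31 of 32 (96.9%) did, against 91.4% of all genes with an open promoter. The exceptions were Nr1i2 in replicate 1 and Pgr in replicate 2. Genome-wide, 272597 footprints were deposited for replicate 1 and 184847 for replicate 2.

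The hexamer that many nuclear receptors read was found in member DHSs at a share close to or below that of all DHSs. AGGTCA was found on either strand in 14.0% and 15.0% of the 200 bp windows centred on member DHSs, against 15.6% and 15.0% of all DHSs. The extended site TCAAGGTCA, which estrogen-related and NR5A receptors bind and which contains AGGTCA, was in 0.825% and 0.609%, against 0.894% and 0.783%. TAGGTCA, the core of the ROR site, was in 2.27% and 1.83%, against 1.66% and 1.81%. Exact repeats of 2 AGGTCA in the same direction spaced by 1, 2, 4 or 5 bases, inverted AGGTCA spaced by 1 base, and inverted GGTCA spaced by 3 bases, were in 0 of 485 and 0 of 493 member windows, and each was in at most 0.0412% of all DHSs. GNACA and TGTNC spaced by 3 bases, the palindrome of the corticosteroid receptors, was in 3 member windows of replicate 1 (Rara, Rxra and Hnf4a, all intronic) and 0 of replicate 2, against 0.507% and 0.501% of all DHSs. In the 51 RefSeq promoters (GRCm38.p6, 300 bp each) matched to 33 of the 35 genes, AGGTCA was in 7 (13.7%), against 16.3% of all 32851 promoters.

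Extended sites in DHSs of replicate 1 are shown for Esrra and Esrrg as examples, with every AGGTCA, or TGACCT on the other strand, in capitals. A DHS 27764 bp upstream of the 5′ end of Nr2c2, with 0.708 and 0.622, also held an extended site and is not printed. The Esrra stretch (chr19:6922241-6922480, minus strand) lies 547 bp upstream of the gene's 5′ end, holds 2 such hexamers and was called in replicate 1 alone, at 1.84. The Esrrg stretch (chr1:187653501-187653704, plus strand), in an intron, had 0.642 in replicate 1 and 1.13 in replicate 2, and its hexamer was touched by a footprint in both libraries. The 7 bases covered in both, GGAAGTG, reach only the opening TG of TGACCT, so most of the site lies outside them.
Esrra: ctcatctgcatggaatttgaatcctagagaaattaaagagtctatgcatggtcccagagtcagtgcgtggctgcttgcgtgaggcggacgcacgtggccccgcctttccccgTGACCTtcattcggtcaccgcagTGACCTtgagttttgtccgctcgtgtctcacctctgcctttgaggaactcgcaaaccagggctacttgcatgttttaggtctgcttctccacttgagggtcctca
Esrrg: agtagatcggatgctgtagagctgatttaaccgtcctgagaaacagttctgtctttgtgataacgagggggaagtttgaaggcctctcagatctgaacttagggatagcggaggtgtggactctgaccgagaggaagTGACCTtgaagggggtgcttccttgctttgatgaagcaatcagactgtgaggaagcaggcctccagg

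Ratios between the 2 mice had a median near that of all genes and no wider spread. As deposited, promoter heights were higher in replicate 1 for 26 of 30 members, with a median log2 ratio, replicate 1 over replicate 2, of 0.54, against 0.46 over all genes open in both. After scaling each library to its total height the median was 0.15 ± 0.37 (SD across the 30 genes), against 0.07 ± 0.47 over all, and 21 of 30 members were above 0. The scaled ratio of summed heights had a median of 0.05 ± 0.68 over 34 members, against 0.01 ± 0.78 over all genes. The sign of the promoter median depended on the peak list, since it was -0.057 with the shorter lists. The highest scaled promoter ratio was that of Esr2 at 0.85 and the lowest that of Nr1i2 at -0.94.

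Log2 ratios of single overlapping member DHSs had an SD of 0.59, against 0.69 over all overlapping DHSs. The members' promoter heights had an SD of 0.37 and their summed heights one of 0.68. The summed heights include Hnf4g at a scaled log2 ratio of -3.41, with 2 and 11 weak DHSs, none of them overlapping. With assignment within 50 kb the SD of summed heights was 0.33, and with overlapping DHSs alone it was 0.30. Of the 485 member DHSs in replicate 1, 306 (63.1%) shared 1 bp or more with one of replicate 2, against 65.2% of all assigned DHSs. As deposited, 4 of the 306 (1.31%) were more than 4 times higher in replicate 1, against 1.54% of all overlapping DHSs, a fold chosen after the values were seen. After scaling each library to its total height 0 of the 306 were, against 0.387% of all. The 4 were a DHS downstream of Rxrg (7.53 in replicate 1 and 1.72 in replicate 2), the Esrrb intronic DHS (6.93 and 1.63), the farther Hnf4a intronic DHS (8.64 and 2.05) and a Rara intronic DHS 17.95 kb from the 5′ end (5.45 and 1.297). Rara also held DHSs that were higher in replicate 2, such as one at 1.10 in replicate 1 and 2.76 in replicate 2, 14.2 kb from the 5′ end. Markers of lymphocytes differed between the libraries too. A promoter DHS was present in 2 of 8 in replicate 1 and in 8 of 8 in replicate 2, and summed heights per gene ran from 0 to 23.0 in replicate 1, with 3 genes at 0, and from 1.61 to 17.0 in replicate 2, with none at 0. Their part in the differences of the members was not tested.

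**Figure D5:**
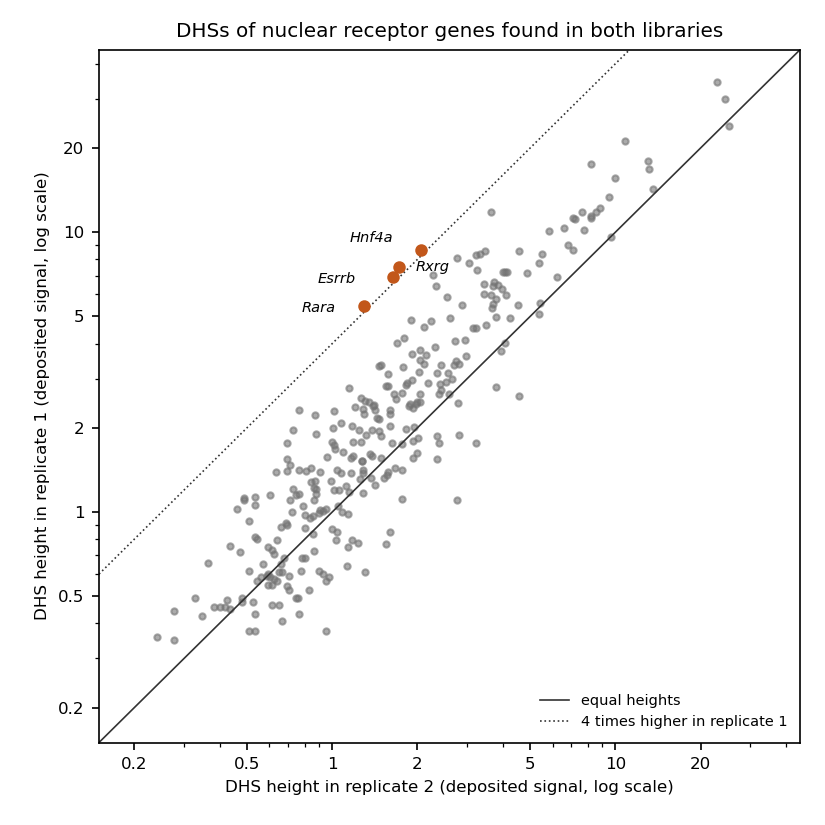
Heights (deposited signal, log scales) of the 306 overlapping member DHSs in replicate 1 (vertical) and replicate 2 (horizontal), with the solid line at equal heights and the dotted line at 4 times higher in replicate 1. Most points lie above the solid line, and 4 named DHSs, in orange, lie just beyond the dotted one.

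Partners of the receptors were open in both mice. All 14 coregulator genes were open in both libraries, against 65.8% of all genes, among them the coactivators Ncoa1 (6.72 and 5.52) and Ncoa2 (26.8 and 22.2). All 8 genes of the chaperone complex that holds steroid receptors were open as well, with a median height of 23.2 and 16.3, against 8.86 and 6.25 over all open promoters. The heat shock protein genes Hsp90aa1 and Hsp90ab1 had 28.1 and 16.9 (Hsp90aa1) and 23.1 and 16.1 (Hsp90ab1).

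Target genes of receptors were open to different extents, against 65.8% of all genes open in both libraries. Of 11 glucocorticoid target genes 10 were open in both libraries, with Fkbp5 at 23.2 and 16.5 and Tsc22d3 at 2.86 and 2.74, and Tat, a liver enzyme gene, had no promoter DHS. Of 12 targets of the fatty acid receptors 11 were open, with Pdk4 at 5.87 and 4.83 and Cpt1a at 14.8 and 10.6, all but Cyp4a14. Of 8 liver X receptor targets 7 were open, with the cholesterol exporter Abca1 at 13.7 and 10.03 and Abcg1 at 2.97 and 2.87, all but Abcg5. Of 7 retinoic acid receptor targets 5 were open, Rarb itself among them, while Cyp26a1 was open in replicate 1 alone (0.700) and Stra6 in replicate 2 alone (0.284). Of 13 retinoid metabolism genes 8 (61.5%) were open, with the retinoic acid-making enzyme genes Aldh1a1 at 0.842 and 0.604 and Aldh1a2 at 5.97 and 3.06, and with Crabp2 closed in both.

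The mineralocorticoid and estrogen target lists had a share of open genes near that of all genes, and the lists of the vitamin D, bile acid and foreign compound receptors had lower shares, differences that were not tested. Of 6 mineralocorticoid targets 4 (66.7%) were open in both, against 65.8% of all genes, while the sodium channel subunit gene Scnn1a had no promoter DHS and Scnn1b had one in replicate 1 alone (1.13). Of 6 estrogen targets 4 (66.7%) were open, Pgr itself among them, with Greb1 at 1.94 and 1.25, while Tff1 had a promoter DHS in replicate 2 alone (0.480) and Ltf had none. Of 5 vitamin D targets 2 were open, with the vitamin D-degrading enzyme gene Cyp24a1 at 6.58 and 3.47, and Cyp27b1, Trpv6 and S100g closed in both. Of 8 targets of the bile acid and foreign compound receptors 3 (37.5%) were open in both libraries, Nr0b2 among them. Slc51a and Cyp2b10 were open in replicate 1 alone, Cyp7a1 and Cyp3a11 in replicate 2 alone, and Abcb11 in neither.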

How the data were processed

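DNase-seq libraries of adrenal gland tissue from 2 mice of 1 group were used, with replicate numbers from the labels. The authors deposited, per library and in mm10, 2 peak lists whose signal (height) values are scaled per library, a list of false discovery rates (q-values of at most 0.05) along the genome, and footprints that all carry the same FDR threshold of 0.01. Per the file headers and descriptions no file pools the libraries. The aligner, the callers and the handling of CAST reads against mm10 were not given in the sources used here. Heights were whole multiples of 0.00833 (replicate 1) and 0.00888 (replicate 2) within 0.02 of a step, so that, read as CPM, the totals would be 120 and 112.6 M counts, which is inferred, not stated. The longer list of each library was the main one, and 685 and 402 of its DHSs overlapped an earlier one.

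Gene models were those of GENCODE M21 (21818 protein-coding genes, 54263 starts, each symbol used once). Each DHS went to the protein-coding start nearest to its centre, up to 100 kb away. Sequences came from RefSeq (GRCm38.p6), and promoters from its tables, which held 33 of the 35 genes. Python 3.11.15, SciPy 1.17.1 and matplotlib 3.10.9 were used. The assignment was tested on simulated data, in which 200 of 200 promoter DHSs planted among 21818 genes were found. No test or p-value was computed, since there is 1 group. The members and all lists were chosen with earlier results of these data known. All members are named, with the first 2 genes of the lists and those open in 1 library or none, as far as the text has room. Alternatives were the shorter lists, promoter windows of 500 bp and 2 kb, the 5′ end alone, own-start DHSs, limits of 50 kb or none, overlapping DHSs, the 50000 strongest DHSs, other scalings, each library alone, wider motif and footprint windows and, added after seeing the data, joined DHSs.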

Additional observations from a re-analysis of the deposited data

How the results depend on the processing

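Of 42 alternative values, those of each library alone not counted, 34 kept their direction and stayed within 1.5 times a count of members or within 1 SD, which is between the libraries for heights, DHS counts and motif shares and across genes for ratios. The count of 30 members open in both libraries ran from 24 (5′ end alone) to 30 over the alternative windows, lists and strengths, and from 30 to 32 with each library alone. The scaled median log2 ratio of promoter heights, replicate 1 over replicate 2, was 0.15 and turned to -0.057 with the shorter lists, and it moved to 0.54 as deposited. The cause was not tested. The median promoter height, 5.33 as a mean of the libraries, moved to 7.47 among the 50000 strongest DHSs, which leaves out weak promoters by construction. The median DHS count, 9.5 as a mean of the libraries, moved to 5.5 with the shorter lists, 12 with no distance limit, 5 with overlapping DHSs alone and 3 with the 50000 strongest, each a change in the number of DHSs counted. The share of member windows with AGGTCA, a mean of 14.5%, moved to 19.2% in windows of 300 bp, which hold more bases. With each library alone, the median promoter height ran from 3.84 to 6.81, the median DHS count from 8 to 11 and the median summed height from 14.7 to 20.8. No paired analysis was possible because both libraries belong to a single group. Weak DHSs limit the low members most, since Nr1i2, Hnf4a and Nr2e1 had no promoter DHS in the shorter lists, nor had Esrrb in replicate 2.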

Other observations

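Markers of further cell types were looked at for the tissue as a whole. Of 6 capsule and stroma markers 4 were open in both libraries, with Gli1 at 6.04 and 3.12, and Lum in neither. Of 6 endothelial markers 4 were open in both, with Cdh5 at 1.22 and 1.12. Of 5 Schwann cell markers 2 were open in both, and Sox10 in neither. Of 5 neuronal markers 4 were open in both, with Slc17a7 at 1.46 and 1.09. Of 5 muscle markers 1 was open in both, Ckm at 5.97 and 4.56, at a start 6184 bp (replicate 1) from its 5′ end.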
